A study of Homo sapiens with 3 samples.

Results

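The genes that encode the proteasome were examined for occupancy of their promoters by the chromatin proteins CHD8 and TRRAP in neural stem cells. Members were all protein-coding genes of GENCODE release 44 whose symbol runs from PSMA to PSMG followed by a number, which gave 48 of 20033 protein-coding genes. The rule used symbols alone and no measured value. Chromatin immunoprecipitation followed by sequencing (ChIP-seq) had been performed on wild-type human neural stem cells. These were made from the embryonic stem cell line H9 and kept in culture with EGF and FGF. All cells were crosslinked with 2 mM disuccinimidyl glutarate, a protein-to-protein crosslinker, and then with 1% formaldehyde, and the chromatin was sheared in 14 sonication cycles. There was 1 library for CHD8 (a Bethyl antibody), 1 for TRRAP (an Invitrogen antibody) and 1 for control IgG (Diagenode), the last of which was not analysed here. Each antibody was thus measured once, in a single cell line, so no comparison below carries a replicate error or a p-value.

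CHD8 is an ATP-dependent chromatin remodeler, and TRRAP is the scaffold that joins transcription factors to histone acetyltransferase complexes. The proteasome degrades proteins marked with ubiquitin. Its 20S core is a barrel of alpha and beta subunits with the proteolytic sites on beta subunits, and the 19S cap, built of ATPases and non-ATPases, recognises, unfolds and feeds in the substrate. Dedicated chaperones assemble both particles, and activators of the PSME family replace or supplement the cap. Immune-type subunits take the place of the catalytic beta subunits in cells exposed to interferon, and other variants belong to the germ line (PSMA8) or the thymic cortex (PSMB11, which is grouped here with PSMA8 as testis-type, as the rule has it). NFE2L1, a membrane-bound transcription factor, is known to raise the expression of proteasome genes when proteasome activity is low.

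Promoter means here the 1 kb before and the 1 kb after the start site of the canonical transcript, and it was occupied if a peak of the list in question overlapped it by at least 1 bp. CHD8 occupied the promoters of 44 of the 48 proteasome genes, and TRRAP occupied 29, all of which also had a CHD8 peak. The CHD8 share was 91.7% (Wilson 95% interval 80.4 to 96.7%), beside a background of 55.9% of all protein-coding genes (11208 of 20033). The TRRAP share was 60.4% (46.3 to 73.0%), beside 34.9% (7000 of 20033), and the share with both was likewise 60.4%, beside 34.0% (6802 of 20033). A CHD8 peak without a TRRAP peak was found at 15 members, a TRRAP peak alone at 0, and neither at 4 (PSMD5, PSMB8, PSMA8 and PSMB11). The intervals reflect counting error and say nothing of variation from experiment to experiment, and members are genes, not replicates.

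Part of the background consists of genes with few CpG dinucleotides, and the shares were also taken over genes in the CpG range of the members. The CpG ratio (observed over expected CpG within 500 bp of the start in either direction) had a median of 0.766 in members and 0.725 in all genes. Among the 15227 genes whose ratio was at least 0.382, the lowest value of a constitutive member (PSME2), 72.1% had a CHD8 peak, 45.4% a TRRAP peak and 44.2% both. Given a CHD8 peak, 65.9% of members and 60.7% of all genes also had a TRRAP peak. The interval of the first of these shares, 51.1 to 78.1%, contains the second.

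**Figure D1:**
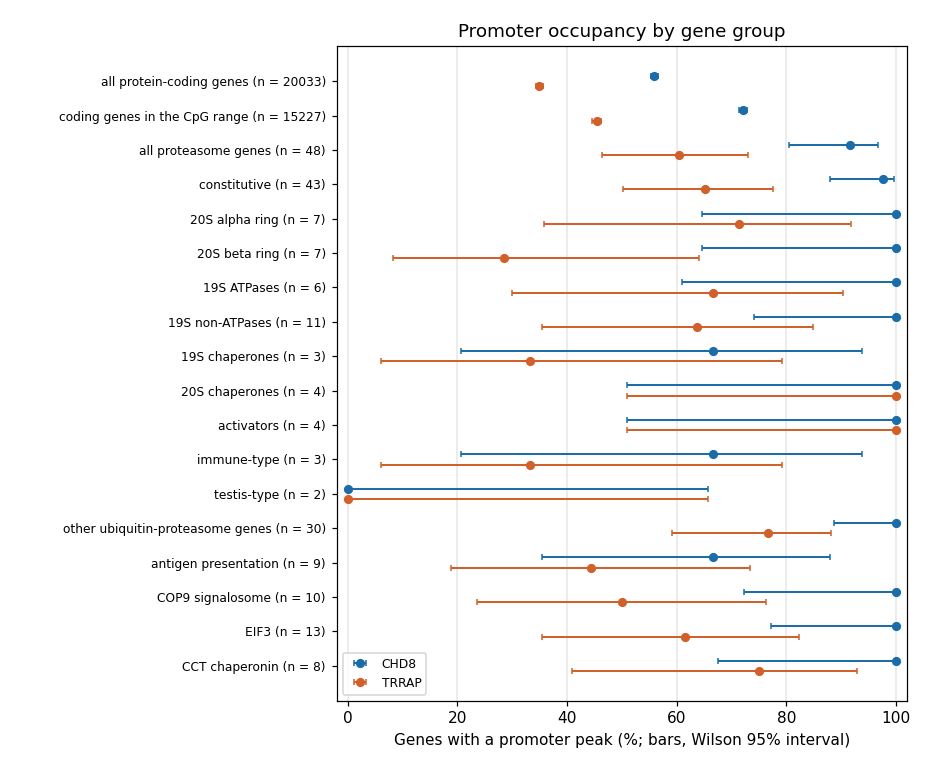
Share of genes with a CHD8 (blue) or TRRAP (orange) promoter peak, in percent on the horizontal axis, for all protein-coding genes, the proteasome genes, their role groups and comparison lists; bars are Wilson 95% intervals, which cover counting error only. CHD8 points sit at 100% for most role groups, while TRRAP ranges from 0% in the testis-type genes to 100% in the 20S chaperones and activators.

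Promoter sequences came from RefSeq on GRCh38.p14 and ran from 250 bases before to 50 bases after the start; 42 of the 48 members had an entry, each with the same start as in GENCODE. PSMA7, PSMB1, PSMB6, PSMB7, PSMD4 and PSMG3 had none. Beta subunit promoters are shown first, because constitutive, immune-type and thymic genes of this family fell into every class of occupancy found. PSMB3 (chr17:38752621-38752740, plus strand) had both peaks, and PSMB5 (chr14:23034901-23035020, minus strand) had a CHD8 peak alone. Of the immune-type genes, PSMB8 (chr6:32844048-32844135, minus strand) had no peak, PSMB9 (chr6:32854072-32854191, plus strand) had a CHD8 peak alone, and PSMB10 (chr16:67936851-67936970, minus strand) had both peaks, but downstream of its start. PSMB11 (chr14:23042092-23042211, plus strand) had none. Each run ends at the base before the start, is written 5′ to 3′ on the strand of the gene, and carries in capitals any match to 9 short words that are described below; the last 3 capitals of PSMB8 are the part of an interferon word that lies before the start.
PSMB3: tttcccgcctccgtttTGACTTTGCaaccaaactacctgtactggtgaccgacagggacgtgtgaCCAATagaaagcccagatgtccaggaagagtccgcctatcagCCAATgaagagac
PSMB5: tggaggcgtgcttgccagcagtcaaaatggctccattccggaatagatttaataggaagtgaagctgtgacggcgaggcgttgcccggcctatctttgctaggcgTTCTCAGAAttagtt
PSMB8: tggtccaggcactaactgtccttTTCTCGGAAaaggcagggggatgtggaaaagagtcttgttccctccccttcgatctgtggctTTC
PSMB9: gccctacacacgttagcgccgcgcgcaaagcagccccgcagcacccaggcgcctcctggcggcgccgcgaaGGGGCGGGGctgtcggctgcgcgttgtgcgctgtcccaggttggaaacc
PSMB10: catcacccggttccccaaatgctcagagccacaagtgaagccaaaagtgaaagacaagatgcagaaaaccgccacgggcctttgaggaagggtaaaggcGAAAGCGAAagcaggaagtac
PSMB11: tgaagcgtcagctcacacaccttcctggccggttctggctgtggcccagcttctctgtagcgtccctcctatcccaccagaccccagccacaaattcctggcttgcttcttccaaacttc

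The ETS word CCGGAAGT, the core bound by ETS-family factors, is shown in its 30-base surroundings because it was the word whose share among proteasome promoters stood furthest above its share among all promoters. It was present in 10 of the 42 member promoters (23.8%, Wilson 95% interval 13.5 to 38.5%) and in 987 of 15345 protein-coding promoters with an entry (6.43%). Among the promoters with a CHD8 peak alone it was in 4 of 12 members (33.3%) and in 458 of 3531 genes (13.0%). Among those with both peaks it was in 5 of 26 members (19.2%) and in 473 of 5503 genes (8.60%). The remaining member was PSMA8, which had neither peak, a class in which the word occurred in 55 of 6162 genes (0.893%). In 9 of the 10 the word began between 50 bases before and 20 bases after the start; the exception was PSME4, where it began 80 bases before. The capitals mark the word on either strand.
PSMA6: cagtcgctgcaACTTCCGGgaggtgcttgt
PSMA8: cgggcgcggggACTTCCGGgaggcagcttg
PSMC1: gtggtggaggaACTTCCGGcagcggcagct
PSMC2: gagcccaatttACTTCCGGtggggaaggga
PSMD8: ggcaaaagccaACTTCCGGtcaccatcttg
PSMD12: gtgcgcgggcaACTTCCGGtgtgggtgacg
PSMD13: gccgctcggcgCCGGAAGTgagtgagcatt
PSMD14: aactagtgaacCCGGAAGTgcttcgcggcg
PSME4: cccgccccgccCCGGAAGTgacttgaggcc
PSMF1: ctgttgggactACTTCCGGcttccccgccc
These stretches lie at chr14:35292387-35292416, chr18:26133823-26133852, chr14:90256551-90256580, chr7:103347608-103347637, chr19:38374542-38374571, chr17:67366568-67366597, chr11:236953-236982, chr2:161308410-161308439, chr2:53971055-53971084 and chr20:1118585-1118614, in the same order. PSMD12 and PSME4 are on the minus strand and the others on the plus strand. The word lay inside the CHD8 peak in 9 of the 10 and inside a TRRAP peak in 3 (PSMD12, PSME4 and PSMF1). The position of the word and its place in peaks were not counted over all promoters. The median CHD8 peak of members, 683 bp, was wider than the window searched, so most words of any kind can fall inside it.

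The interferon-stimulated response word GAAANNGAA, recognised by interferon regulatory factors, is shown for the members that shared 1 form of it. Among 7 members with the word (16.7%, 8.32 to 30.6%, against 1053 of 15345 promoters or 6.86%), 5 carried the form GAAAGCGAA, read here on either strand and singled out after the members' sequences were seen. That form was in 53 of all 15345 promoters (0.345%). They were the immune-type genes PSMB8 and PSMB10, PSME1 and PSME2, which encode the interferon-inducible PA28 activator, and PSMG4, a chaperone of core assembly.
PSMB8: atctgtggctTTCGCTTTCacttcctcctc
PSMB10: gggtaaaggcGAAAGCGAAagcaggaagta
PSME1: ccctaccgctTTCGCTTTCccttcgcggtg
PSME2: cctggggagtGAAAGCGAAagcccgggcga
PSMG4: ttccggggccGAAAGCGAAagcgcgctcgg
The stretches lie at chr6:32844031-32844060, chr16:67936852-67936881 and chr14:24146619-24146648 on the minus strand, and at chr14:24136190-24136219 and chr6:3258904-3258933 on the plus strand. PSMB8 and PSMB10 had no peak over the word, whereas in PSME1, PSME2 and PSMG4 the word lay inside the CHD8 peak.

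The antioxidant response word TGACNNNGC, the kind of site to which NFE2L1 and NFE2L2 bind with small MAF proteins, is shown because most members that held it had a TRRAP peak. It was in 12 of 42 member promoters (28.6%, 17.2 to 43.6%) and in 2198 of 15345 promoters (14.3%). By occupancy, 10 of the 26 members with both peaks held it (38.5%, 22.4 to 57.5%), as did 1 of the 12 with a CHD8 peak alone (8.33%, 1.49 to 35.4%). The intervals of those shares overlap, and over all genes the shares were 16.2% with both peaks and 14.2% with a CHD8 peak alone. The remaining member was PSMD5, which had neither peak. For 6 of the 12 the word is shown, at chr17:38752627-38752656, chr17:39980760-39980789 and chr12:121888678-121888707 on the plus strand and at chr17:67366723-67366752, chr2:53971008-53971037 and chr9:120843037-120843066 on the minus strand.
PSMB3: gcctccgtttTGACTTTGCaaccaaactac
PSMD3: tcccctttgtTGACTCGGCcatcggcctgc
PSMD9: cggcttccggTGACCCAGCtccgccctaag
PSMD12: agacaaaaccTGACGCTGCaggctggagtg
PSME4: cccggcggctGCAGCGTCAccagcagagcc
PSMD5: tggctacagtTGACACGGCcctaacggagg
The 14 antioxidant words of the 12 members lay inside the CHD8 peak in 12 cases and inside the TRRAP peak in 9. The same counts were not made over all promoters, and the window searched was narrower than the median CHD8 peak of members. For the 12 words in the 10 members with a TRRAP peak, the TRRAP summit lay 4 to 272 bp from the word, with a median of 120 bp and 7 of the 12 beyond 100 bp. The closest was at PSMD9, an assembly chaperone of the cap, and the farthest at PSMC4, an ATPase of its base.

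The other 6 words were closer to the share over all promoters, except for a second interferon word. The CCAAT box (CCAAT), bound by NFY, was in 18 of 42 members (42.9%, against 36.6% of all promoters), and it was in 8 of the 12 with a CHD8 peak alone (66.7%, 39.1 to 86.2%) and 9 of the 26 with both (34.6%, 19.4 to 53.8%). Over all genes those classes held it in 43.1% and 35.2% of promoters, both inside the members' intervals. The GC box (GGGGCGGGG), bound by SP factors, was in 11 (26.2%, against 24.1%). The E-box (CACGTG), bound by MYC and its relatives, was in 3 (7.14%, against 8.86%). The nuclear respiratory factor 1 word (GCGCATGCG), whose factor is a different protein from NFE2L1, was in 1 (2.38%, against 2.80%), and the YY1 word (AANATGGCG) was in 2 (4.76%, against 5.24%). The gamma-interferon word (TTCNNNGAA), bound by STAT factors, was in 7 (16.7%, 8.32 to 30.6%, against 6.69%), among them PSMB8 and PSMB5, the immune-type and the constitutive chymotrypsin-like subunit. Words were searched on both strands without mismatch, may overlap each other, and describe the letters of the window, not binding.

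The 7 alpha ring genes, which form the gated outer rings of the 20S core, all had a CHD8 peak, and 5 of them had a TRRAP peak. Their TRRAP share was 71.4% (35.9 to 91.8%), beside 34.9% of all genes, of which 55.9% had a CHD8 peak. PSMA4 had the highest CHD8 fold of all members, 51.3 (chr15:78540159-78541056), at percentile 99.5 of the genes with a CHD8 promoter peak, and its TRRAP fold was 13.4. Fold is the authors' deposited linear ratio of signal over the peak caller's background, and its size is not compared between the CHD8 and TRRAP lists. PSMA7 stood in the opposite order, with a TRRAP fold of 19.2 (percentile 94.1 of occupied genes) and a CHD8 fold of 11.1 (percentile 43.2). PSMA2 and PSMA3 had CHD8 folds of 14.2 and 9.31 and no TRRAP peak. Their nearest TRRAP peaks were 20127 and 44799 bp from the start. The other 3 genes with both peaks, PSMA1, PSMA5 and PSMA6, had CHD8 folds of 17.3, 12.0 and 12.8, and their TRRAP folds of 6.26, 6.73 and 5.78 lay below the median of occupied genes, 8.65.

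The 7 constitutive beta ring genes all had a CHD8 peak, but only PSMB2 and PSMB3 had a TRRAP peak. The 3 catalytic genes were among the strongest CHD8 promoters of the set and had no TRRAP peak. PSMB5, the chymotrypsin-like subunit, had a CHD8 fold of 37.2 (chr14:23034434-23035492), PSMB6, the caspase-like subunit, 31.0 (chr17:4795857-4796799), and PSMB7, the trypsin-like subunit, 27.0 (chr9:124415051-124415615). These folds lie at percentiles 92.7 to 97.7 of occupied genes. The nearest TRRAP peak was 22575 bp from the start of PSMB5, 10810 bp from PSMB6 and 62099 bp from PSMB7. Among the non-catalytic genes, PSMB1 and PSMB4 had CHD8 folds of 24.3 and 23.0 and no TRRAP peak, with nearest TRRAP peaks 149551 and 52463 bp away, whereas PSMB2 and PSMB3 had lower CHD8 folds (13.7 and 10.6) and TRRAP folds of 5.78 and 10.1. The 5 constitutive beta genes without TRRAP thus had higher CHD8 folds than the pair with it. The TRRAP share of this ring was 28.6% (8.22 to 64.1%), an interval that contains the 34.9% of all genes. Over the ring, the median CHD8 fold was 24.3, beside 12.0 over all genes with a CHD8 promoter peak.

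In the 19S cap, CHD8 peaks were present at all 17 genes for ATPases and non-ATPases and TRRAP peaks at 11. The TRRAP share was 64.7% (41.3 to 82.7%), and over all genes the shares were 55.9% (CHD8) and 34.9% (TRRAP). Of the 6 ATPases, which unfold the substrate, PSMC3 had the highest CHD8 fold, 34.1, with a TRRAP fold of 6.26, and PSMC4 had the highest TRRAP fold, 11.5. PSMC5 and PSMC6 also had both peaks, with CHD8 folds of 18.6 and 19.5 and TRRAP folds of 9.12 and 7.21. PSMC1 and PSMC2 had CHD8 folds of 21.2 and 15.9 and no TRRAP peak; the nearest lay 75337 bp from PSMC1 and 2698 bp from PSMC2. When the starts of all annotated transcripts were used, PSMC2 became a gene with both peaks, and no other member changed. Its nearest TRRAP peak (chr7:103344595-103344945) covered an annotated start of another gene, DNAJC2, at position 103344830. Of the 11 non-ATPases, PSMD12, a scaffold of the lid, had the highest TRRAP fold of all members, 22.0 (chr17:67366511-67366735), at percentile 96.2 of occupied genes, and a CHD8 fold of 26.5. At PSMD1, a large scaffold of the base, the folds were 27.4 (CHD8) and 6.26 (TRRAP). PSMD6, PSMD8, PSMD11 and PSMD14 had CHD8 folds of 24.8, 17.7, 17.3 and 15.1 and no TRRAP peak. The remaining 5 (PSMD2, PSMD3, PSMD4, PSMD7 and PSMD13) had both peaks, with CHD8 folds from 7.98 to 21.2 and TRRAP folds from 5.30 to 12.0. PSMD14 encodes the deubiquitinase of the lid, and its nearest TRRAP peak was 25880 bp away; for PSMD6, PSMD8 and PSMD11 the distances were 52572, 38090 and 41918 bp.

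The assembly chaperones of the cap differed among themselves. PSMD9 had both peaks, with folds of 17.7 (CHD8) and 9.60 (TRRAP). PSMD10 had a CHD8 peak alone, with a fold of 8.43, and that peak covered 185 bp and did not span the start: its summit was 225 bp downstream. The nearest TRRAP peak to PSMD10 was 463047 bp away. PSMD5 was the only constitutive member without a CHD8 peak, and its nearest peaks of CHD8 and TRRAP were 33200 and 33575 bp from the start. Its CpG ratio, 0.655, lay in a decile of all genes in which 57.0% had a CHD8 peak and 25.7% a TRRAP peak.

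Both peaks were present at all 4 chaperones of the 20S core (PSMG1 to PSMG4) and all 4 activators (PSME1 to PSME4). They were also present at PSMF1, a regulator known as PI31. For each group of 4 the interval of the share with both ran from 51.0 to 100%, beside 34.0% of all genes. Among these genes, TRRAP folds were highest at PSME4 (16.8), which encodes the activator PA200, and at PSMG1 (15.3) and PSMG2 (12.9), whose products pair to build the alpha ring. CHD8 folds were highest at PSMF1 (27.4) and PSMG2 (22.1). The CHD8 folds of PSME4 and PSMG1 were 17.7 and 12.0, and the TRRAP fold of PSMF1 was 7.21. PSME1 had the lowest CHD8 fold of any member, 6.22, at percentile 2.67 of occupied genes. Folds at PSMG3, PSMG4, PSME2 and PSME3 ran from 7.98 to 14.6 (CHD8) and from 5.78 to 9.60 (TRRAP), with 12.0 and 6.26 at PSME2. CHD8 was present at all 31 genes for constitutive 26S subunits (89.0 to 100%, beside 55.9% of all genes). TRRAP was present at 18 of the 31 (58.1%, 40.8 to 73.6%, beside 34.9% of all genes).

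**Figure D2:**
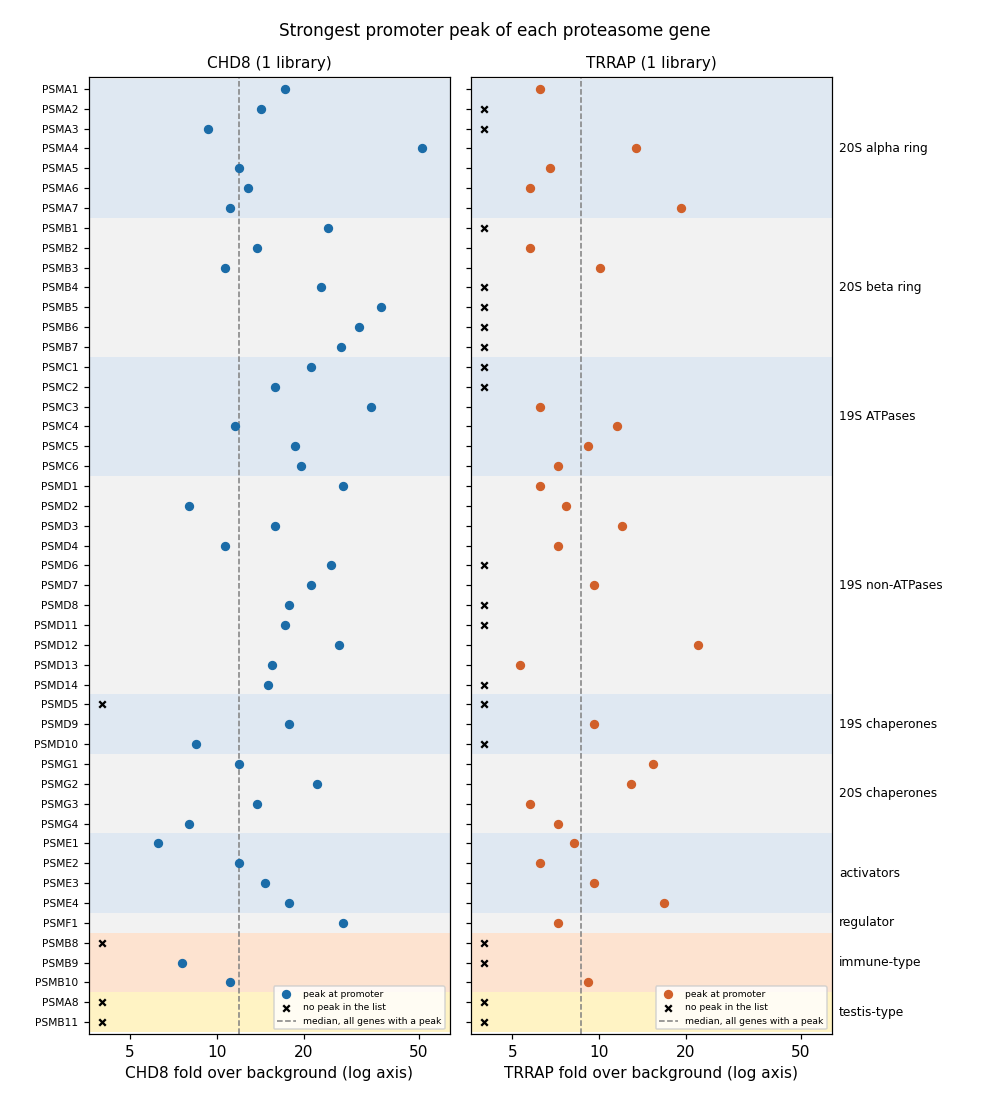
Fold of the strongest promoter peak of each proteasome gene in the CHD8 library (left) and the TRRAP library (right), on a log axis, by role; crosses are genes with no promoter peak in that list and dashed lines the median of all occupied genes (12.0 and 8.65). Most CHD8 points lie right of the dashed line, and TRRAP points lie on both sides of it. In the constitutive beta ring 5 of 7 genes have a TRRAP cross, and the TRRAP share there (28.6%, 8.22 to 64.1%) has an interval that contains the 34.9% of all genes.

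Of the 3 immune-type and 2 testis-type genes, 2 had a CHD8 peak and 1 had both, beside 42 and 28 of the 43 constitutive genes. PSMB8, the immune counterpart of PSMB5, had neither peak, and the nearest peaks of CHD8 and TRRAP lay 5152 and 5213 bp from its start, at the promoter of TAP2, a peptide transporter gene. PSMB9, the counterpart of PSMB6, had a CHD8 peak alone (chr6:32854106-32854333) with a fold of 7.54, at percentile 11.8 of occupied genes. PSMB10, the counterpart of PSMB7, had both peaks, with folds of 11.1 (CHD8, chr16:67935659-67936204) and 9.12 (TRRAP, chr16:67935909-67936160). The PSMB10 summits lay within the gene, 974 and 811 bp downstream of the canonical start, and 141 and 22 bp from the start of another protein-coding gene, ENSG00000261884. They were also 81 and 54 bp from the start of another annotated PSMB10 transcript, so the peaks cannot be assigned to 1 of these starts. With a window of 500 bp, PSMB10 had neither peak, and the immune-type count was 1 of 3 for CHD8 (PSMB9) and 0 of 3 for TRRAP.

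PSMA8 and PSMB11 had no promoter peak of either protein. The nearest peaks were 42687 bp (CHD8) and 42502 bp (TRRAP) from PSMA8, whose constitutive counterpart is PSMA7. For PSMB11, the nearest CHD8 peak, 6720 bp away, was the one at the promoter of PSMB5, its neighbour on chromosome 14, and the nearest TRRAP peak was 15263 bp away. CpG ratios were 0.686 for PSMA8 and 0.316 for PSMB11, and those of the immune-type genes had a median of 0.600. With so few genes, the intervals of the CHD8 share are wide. That of the immune-type genes, 20.8 to 93.9%, overlaps that of the constitutive genes, 87.9 to 99.6%, and that of the testis-type genes, 0 to 65.8%, ends below it. The immune-type and the testis-type interval both contain the 55.9% of all protein-coding genes.

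**Figure D3:**
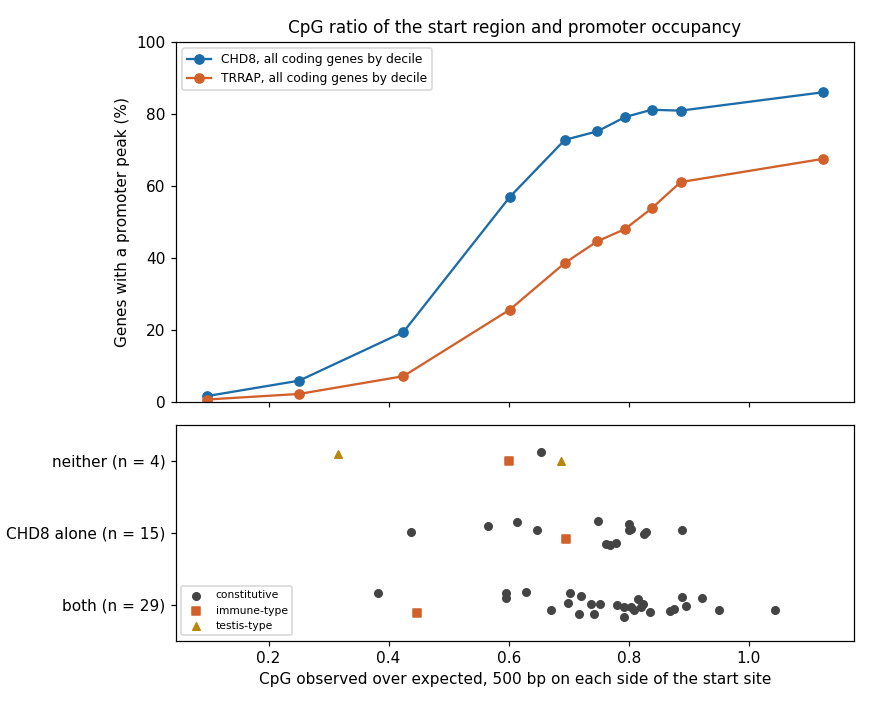
Top: percent of all protein-coding genes with a CHD8 or TRRAP promoter peak in each decile of the CpG ratio, plotted at the middle of its range. Bottom: CpG ratio of each proteasome gene by the peaks it carries (points are spread vertically for visibility); members lie from 0.316 to 1.04, and both shares climb over most of that range.

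No member lay in the lowest 2 deciles of the CpG ratio, where few genes of any kind were occupied (1.60 and 5.89% by CHD8). In the decile from 0.308 to 0.542, where 19.4% of genes had a CHD8 peak, the members were PSMC2, PSME2, PSMB10 and PSMB11, and all but PSMB11 had one. The highest decile, with 65.8% of genes carrying both peaks, held PSMA7, PSMG2 and PSMG3, each with both. CpG ratio did not separate members with both peaks (median 0.791) from members with CHD8 alone (0.770) as far as it separated the same classes over all genes (0.823 and 0.760).

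The median CHD8 fold at proteasome promoters was higher than that over all occupied promoters, and the median TRRAP fold was not. The median CHD8 fold of the 44 members was 15.9 (25th to 75th percentile 11.9 to 22.3), beside 12.0 (9.31 to 16.4) over 11208 genes, and 30 of the 44 lay above that gene median. The median TRRAP fold of the 29 members was 8.17 (6.26 to 11.5), beside 8.65 (7.21 to 11.5) over 7000 genes, and 14 of the 29 lay above it. In their own lists, 39 of 44 CHD8 peaks and 14 of 29 TRRAP peaks ranked in the upper 50% by −log10 q, the deposited significance after correction (88.6% and 48.3%, beside 76.0% and 55.9% of all occupied genes). The class order also differed from that of all genes: members with CHD8 alone had a median CHD8 fold of 17.7 and members with both 14.6, while over all genes the medians were 10.6 and 13.3. Across the 29 members with both peaks, CHD8 and TRRAP folds had a Pearson correlation of 0.177 and a Spearman correlation of 0.0617, and across all 6802 such genes 0.0907 and 0.144. These are descriptions across genes of the same pair of libraries, and genes are not independent replicates.

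**Figure D4:**
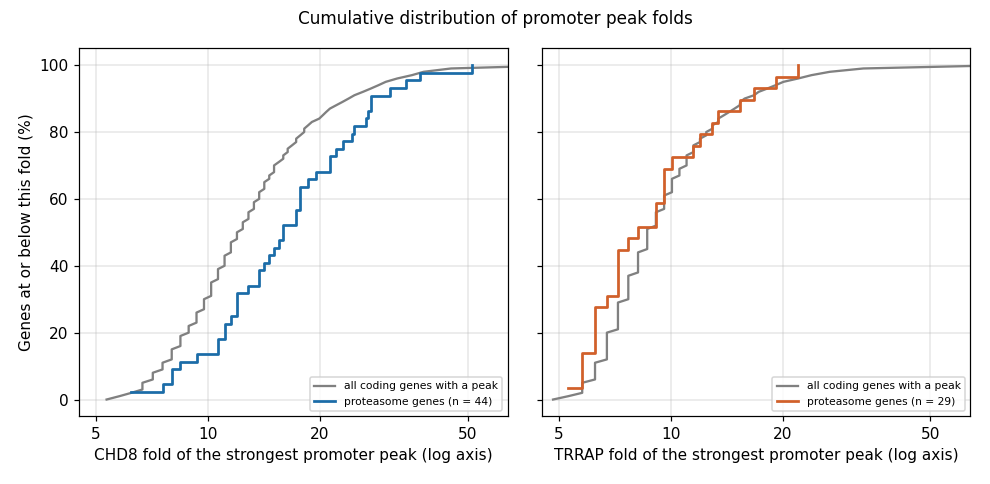
Cumulative percent of genes at or below each fold of the strongest promoter peak (log axis) for proteasome genes (coloured steps) and all occupied protein-coding genes (grey), for CHD8 (left) and TRRAP (right). The CHD8 curve of the 44 members lies to the right of the grey curve over most of its range (medians 15.9 and 12.0), while the TRRAP curve of the 29 members stays close to it (8.17 and 8.65).

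Where both proteins had a peak, the peaks of each pair overlapped. This held for all 29 pairs, and 25 TRRAP peaks lay wholly inside the CHD8 peak. Over all genes with both, 6692 of 6802 pairs overlapped. Peaks lying wholly inside another were not counted over all genes. The median distance between paired summits was 69 bp in members and 105 bp over all genes, and was 5 bp at PSMC3 and 9 bp at PSMF1, the closest pairs, and 236 bp at PSMA6, the widest. CHD8 peaks had a median width of 683 bp (638 bp over all genes) and TRRAP peaks 262 bp (269 bp).

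Relative to the start, with negative values upstream, the median CHD8 summit was at −35 bp and the median TRRAP summit at −61 bp, beside −31 and −47 bp over all genes. Of the 44 CHD8 summits, 29 were upstream, 14 downstream and 1, that of PSMB6, on the start itself. Of the 29 TRRAP summits, 21 were upstream and 7 downstream, and that of PSMA7 was on the start. The CHD8 peak spanned the start in 42 members, the exceptions being PSMD10 and PSMB10, and the TRRAP peak did so in 21. Summits on each side of the start and peaks spanning it were not counted over all genes. No member had a further peak inside its transcript beyond 1 kb of the start.

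**Figure D5:**
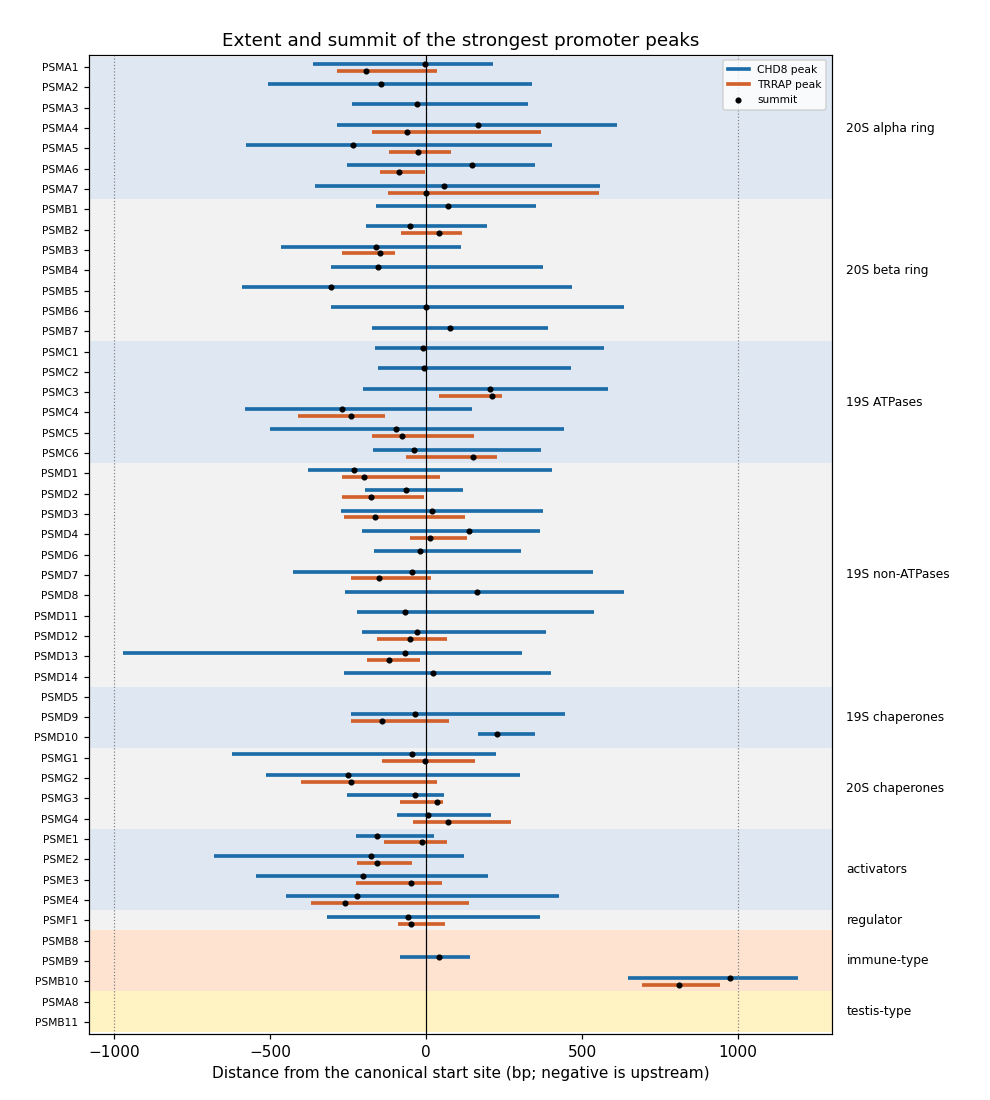
Extent (bars) and summit (black points) of the strongest CHD8 (blue) and TRRAP (orange) promoter peak of each proteasome gene, in bp from the canonical start, with transcription to the right; dotted lines mark 1000 bp on each side. Bars cross the start in 42 CHD8 and 21 TRRAP cases, and PSMB10 is the one member whose peaks lie wholly more than 500 bp downstream.

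Several member promoters are shared with a neighbouring gene, and peaks there cannot be assigned to 1 gene. By canonical starts, 8 members had a divergent protein-coding start within 1 kb upstream: SS18L1 (375 bp from PSMA7), MRPL32 (202 bp from PSMA2), SIRT3 (634 bp from PSMD13), ATG4A (236 bp from PSMD10), CEP76 (319 bp from PSMG2), RNF31 (888 bp from PSME2), ACYP2 (120 bp from PSME4) and TAP1 (488 bp from PSMB9). All 8 had a CHD8 peak and 5 a TRRAP peak; over all 1895 genes with such a neighbour the shares were 94.2% and 60.2%. Among the 40 other members, 36 had a CHD8 peak (90.0%, 76.9 to 96.0%) and 24 a TRRAP peak (60.0%, 44.6 to 73.7%), against 51.9% and 32.3% of all genes without such a neighbour. PSME3 was counted among these 40, but another annotated transcript of BECN1 starts 2 bp from its TRRAP summit and a BECN1 start lies 138 bp from its CHD8 summit. The TRRAP peak at PSMD13 had the lowest TRRAP fold of any member, 5.30, and its summit lay at −119 bp, 2 bp from an annotated SIRT3 start. The CHD8 fold at PSMD13 was 15.5. At PSME2, another annotated RNF31 start lay 35 bp (CHD8) and 18 bp (TRRAP) from the summits, and the nearest PSME2 start 140 and 123 bp. At PSMG2, a further CEP76 start lay 13 and 25 bp from the summits, and the nearest PSMG2 start 4 and 16 bp. PSMA1, PSMA2 and PSMD9 also lay 42, 40 and 19 bp from the start of a further protein-coding gene on the same strand. PSMC5 and FTSJ3 face each other with starts 232 bp apart inside a single CHD8 peak. Another annotated FTSJ3 start lay 6 bp (CHD8) and 25 bp (TRRAP) from the summits, and the nearest PSMC5 start 96 and 77 bp. PSMB1 carried a second CHD8 peak, with a fold of 15.9, whose summit was at −998 bp. That summit lay 3 bp from an annotated start of TBP, the gene of the TATA-binding protein. By canonical starts, PSMB1 was counted among the 40 members without a divergent neighbour.

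The other genes of the ubiquitin and proteasome pathway were taken from a list. Outside antigen presentation, all 30 listed genes had a CHD8 peak (100%, 88.6 to 100%) and 23 a TRRAP peak (76.7%, 59.1 to 88.2%), beside the 55.9% and 34.9% of all genes. The 3 highest CHD8 folds were at UFD1 (42.0, no TRRAP peak) and NPLOC4 (31.8; TRRAP 6.26), both cofactors of the p97 segregase, and at UBA1 (29.2; TRRAP 8.17), the main ubiquitin-activating enzyme. The regulators NFE2L1 (CHD8 fold 16.4, TRRAP fold 8.65), NFE2L2 (17.3 and 19.2), DDI2, the protease that cleaves NFE2L1 (15.5 and 10.6), and NGLY1, which deglycosylates it (10.2 and 5.30), all had both peaks. The NFE2L2 summits lay 1115 bp (CHD8) and 1092 bp (TRRAP) downstream of its start, so these peaks reached the promoter window with their edges only. Of 9 antigen presentation genes, 6 had a CHD8 peak (66.7%, beside 55.9% of all genes) and 4 had both (44.4%, beside 34.0%). The median CHD8 fold of the 6 was 7.76, and the peak counted for TAP1 was the same one counted for PSMB9. ERAP2, NLRC5 and TAPBP had neither.

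Other large multi-subunit complexes were compared. All 10 genes of the COP9 signalosome, which shares its architecture with the lid, had a CHD8 peak and 5 a TRRAP peak, with a median CHD8 fold of 18.6. For the translation initiation factor EIF3 the counts were 13 and 8 of 13 (median CHD8 fold 13.7), and for the CCT chaperonin 8 and 6 of 8 (median 14.0). CHD8 was thus at every listed gene of these complexes, beside 97.7% of the constitutive proteasome genes (87.9 to 99.6%), and nothing in these counts sets the proteasome apart from them.

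The labelled cell type was checked by promoter occupancy, which is not a measure of expression. Of 8 neural stem cell markers, 8 had a CHD8 peak and 6 a TRRAP peak, beside 55.9% and 34.9% of all genes. Of 13 markers of pluripotent cells, neurons, astrocytes, leukocytes and germ cells, 3 had peaks of both proteins (DPPA4, SNAP25 and SYT1). All leukocyte and germ cell markers (PTPRC, CD74, SPI1, DDX4 and DAZL) were without a peak. The marker sets also differed in CpG ratio, with a median of 0.722 in the neural stem cell markers and 0.362 in the 13 others. The part of cell type and of CpG ratio in these counts was not tested. The highest CHD8 fold of any marker, 38.0, was at the neuron marker SNAP25, beside at most 17.3 in the neural stem cell markers. The lists held 23393 CHD8 and 14735 TRRAP peaks, and the number of reads behind them was not given in the sources used here, so a gene without a listed peak is one at which no peak passed the authors' threshold, not one shown to be unbound.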

How the data were processed

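Peak lists from 1 CHD8 and 1 TRRAP library of H9-derived neural stem cells were used; the IgG library was not analysed here. HISAT2, MACS2 2.1.1.20160309 and GRCh38 are named in the submitters' processing notes; the control sample, filters and read totals are not given in the sources used here. Each list holds, per peak, values deposited by the authors: a score (10 times −log10 q, rounded down, in every peak), a fold (linear ratio over background), and −log10 p and −log10 q. Sequence names matched GRCh38 in 84 of 84 and 88 of 88 cases, with 0 peaks past a sequence end; coordinates count from 1.

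Promoters were the 1 kb on each side of the canonical start in GENCODE release 44. A member's strongest peak was the one with the highest −log10 q, ties broken by fold, width and position. Shares carry Wilson 95% intervals. Promoter calling and word search were tested on simulated data. No p-values were computed. Alternatives were windows of 500 and 2500 bp, summits inside the window, starts of all transcripts, upper 50% of each list, TRRAP peaks with q of at most 0.0001, single-copy summits and stricter overlaps.

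The members, gene lists and words were chosen with earlier results of these data known. The folds of any peaks were given for immune-type and testis-type members, members lacking a peak, the 5 highest folds of each protein, PSMB5, PSMB6, PSMB7 and PSMA7, and members with a divergent neighbour. Of the other pathway genes, those lacking both peaks and the 3 with the highest CHD8 fold were named; further genes were named after their values were seen. Intervals were computed with scipy 1.17.1 and figures drawn with matplotlib 3.10.9, under Python 3.11.15 with pandas 2.3.3 and numpy 2.4.6.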

Additional observations from a re-analysis of the deposited data

How the results depend on the processing

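With only the upper 50% of each list by −log10 q, TRRAP peaks remained at 14 members, all with CHD8 (14 with both peaks and 14 overlapping pairs), 13 of them constitutive, and CHD8 peaks at 39; 1 immune-type gene then had a CHD8 peak. Over all genes the same restriction left 42.5% with CHD8, 19.5% with TRRAP and 16.7% with both. It changed the class of 17 members, and 5 of these (PSME1, PSMD2, PSMG4, PSMB9 and PSMD10) joined PSMD5, PSMB8, PSMA8 and PSMB11 in having neither peak. With a window of 500 bp, CHD8 was left at 1 immune-type gene and TRRAP at 0, since PSMB10 dropped out; the other members were unchanged in class. With the starts of all transcripts, 30 members had both peaks, through PSMC2, whose nearest TRRAP peak covered a start of DNAJC2. The median distance of summits from a canonical start was not computed under that setting. Windows of 2500 bp, summits inside the window, single-copy summits and TRRAP peaks with q of at most 0.0001 changed the class of no member, and 26 of 29 pairs had summits within 200 bp. No paired analysis was possible because each antibody had 1 library. Read totals were not given, so absence of a peak cannot be told apart from low depth.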
